A study of Mus musculus with 6 samples.

Results

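The enzymes of heme synthesis were followed library by library in knee cartilage of miR-455 null and wild-type (WT) mice. The set was taken by gene symbol as Alas1, Alas2, Alad, Uros, Urod, Cpox, Ppox and Fech, which are 8 of the 36711 gene identifiers in the data. It holds both isoforms of the first enzyme of the pathway and 6 later enzymes, and the remaining step was not analysed here. Total RNA was sequenced from 3 miR-455 null and 3 WT samples of mice aged 3 months on the C57/Bl6 strain, with cartilage of 2 knees pooled in each sample. The miR-455 null line carried a CRISPR-Cas9 deletion that took out part of both mature miR-455 strands, miR-455-3p and miR-455-5p,. The gene for miR-455 lies within Col27a1, a collagen gene. Nothing in the labels said whether the 3 samples of a genotype came from separate animals, so p-values here reflect how far these 6 libraries varied, which may be technical variation.

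Heme is an iron-holding ring that is built partly in mitochondria and partly in the cytosol. Synthesis opens in the mitochondrion, where 5-aminolevulinate synthase joins glycine to succinyl-CoA. Alas1 encodes the form of this enzyme present in nearly all cells, which heme itself holds down, and Alas2 encodes the form of red cell precursors. Alad, Uros and Urod act in the cytosol on the growing ring, Cpox and Ppox oxidise it on the return to the mitochondrion, and Fech inserts the iron. Precursors of red cells make most of the heme of the body, for hemoglobin, and switch on Alas2 and the later enzymes together under the transcription factors GATA1 and KLF1. Translation of Alas2 is held back when iron is scarce by proteins that bind a stem and loop in its messenger RNA.

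The sequences below show the microRNA strands that are not intact in the null mice, and regulatory words in the genes of the enzymes, of which the iron-responsive element was found in Alas2 alone. Both strands of miR-455 are given from RefSeq (GRCm38.p6, chromosome 4, plus strand, chr4:63256867-63256888 for 5p and chr4:63256904-63256924 for 3p), with the seed (bases 2 to 8) in capitals.
mmu-miR-455-5p: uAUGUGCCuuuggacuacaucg
mmu-miR-455-3p: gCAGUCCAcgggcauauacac
A 7-base match to the 5p seed, GGCACAT, was found in the annotated 3′UTRs of 0 of the 8 enzymes, against 9.28% of 11851 genes searched. The match to the 3p seed, TGGACTG, was also found in 0 of 8, against 13.9% of the same genes. The absence of these letters says nothing of other kinds of site, and the longest 3′UTRs searched ran from 65 bases in Ppox to 5243 bases in Fech.

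The iron-responsive element of Alas2 was located in its 5′UTR by a pattern of a bulged C, a stem of 5 bases, the loop CAGNGN and 5 bases pairing with the stem (GENCODE M21, GRCm38). The stretch shown, which holds the match with bases on either side, spanned bases 84 to 113 of the transcript. It had 28 bases in exon 1 (chrX:150547458-150547485, plus strand) and 2 bases in exon 2 (chrX:150552149-150552150). The match itself lay within exon 1. The loop is in capitals.
Alas2 element: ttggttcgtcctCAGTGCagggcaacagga
Alas2 was the 1 enzyme of 8 with this pattern, against 0.735% of 11831 genes searched.

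Words bound by GATA factors (the words AGATAA or otherwise AGATAG, and also TGATAA or otherwise TGATAG, both strands) were searched in the 250 bases upstream of each start in the RefSeq promoter table, which matched 7 of the 8 enzymes. A match was present for Alas2, Cpox and Uros and absent at every start of Alas1, Alad, Urod and Ppox, against 20.6% of 9481 genes with at least 1 match. Windows of 60 bases around matches outside exons are shown to compare these 3 genes, with the matches in capitals, at chrX:150547304-150547363 (plus strand), chr16:58670092-58670151 (plus strand) and chr7:133702673-133702732 (minus strand).
Alas2 window: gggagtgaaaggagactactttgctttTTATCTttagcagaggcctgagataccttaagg
Cpox window: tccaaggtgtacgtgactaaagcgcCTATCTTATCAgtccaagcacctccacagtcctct
Uros window: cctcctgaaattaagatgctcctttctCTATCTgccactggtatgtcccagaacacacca
The Alas2 match lay 86 to 81 bases upstream of the start, the 2 Cpox matches overlapped, and the Uros match shown lay upstream of an internal annotated start. Another Uros match, 68 to 63 bases upstream of the same start, is not shown because its window overlaps an exon. The other Uros start searched had no match. The word CCNCNCCC (both strands, matches may overlap), the letters of the CACCC class that KLF factors bind, was found 4 times upstream of the RefSeq start of Alas2 and as often, 4 times, at 1 of the starts of Alad. It was also present for Alas1 and Uros, absent for Cpox, Ppox and Urod, and found in 66.9% of the 9481 genes, so most promoters hold it. The Alas2 matches lay 42 to 19 bases before the RefSeq start at chrX:150547417. GENCODE starts the gene at 150547375, so they fall within its annotated exon 1. A match describes the letters of the reference genome and is no evidence of binding in these samples.

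In the GENCODE annotation (GRCm38) the 8 enzymes are protein-coding genes on separate stretches of 7 chromosomes. Alas1 (ENSMUSG00000032786) lies on chromosome 9 from 106233455 to 106248654, and Alas2 (ENSMUSG00000025270) on chromosome X from 150547375 to 150570638. Alad (ENSMUSG00000028393) lies on chromosome 4 from 62509169 to 62519918, Urod (ENSMUSG00000028684) on chromosome 4 from 116989965 to 116994413, and Uros (ENSMUSG00000030979) on chromosome 7 from 133686243 to 133710072. Cpox (ENSMUSG00000022742) lies on chromosome 16 from 58670292 to 58717636, Ppox (ENSMUSG00000062729) on chromosome 1 from 171275990 to 171281186, and Fech (ENSMUSG00000024588) on chromosome 18 from 64452914 to 64490251. Genes on the opposite strand overlap 5 of them, including Apex2, whose annotated span covers all of Alas2 and which averaged 4.67. The sources used here do not say whether the libraries kept strand, so reads could not be assigned with certainty where genes overlap. Genes of the Y chromosome were detected in all 6 libraries, with Ddx3y at 15.8 to 21.1 in the null libraries and 19.1 to 21.3 in the WT libraries. Eif2s3y was lower in every null library, at 41.7, 42.3 and 33.5 in null libraries 1 to 3. In WT libraries 1 to 3 it was at 48.7, 47.1 and 46.0, while the other Y genes read overlapped. The labels give no sex, and a mix of sexes was not tested, which bears on Alas2 as an X-linked gene.

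The deposited values are gene-level abundances that add to between 917819 and 1135956 per library and behave as length-normalised values. Length normalisation was inferred from the totals, whose geometric mean is 1000000, and is not stated, so each comparison of levels between genes below rests on it. The values are called abundances here. Read numbers were not part of the values, which leaves the depth unknown and allows no interval for counting error. The labels call the cell type chondrocyte, but red cell and neutrophil transcripts were far above those of cartilage. The cartilage markers together summed to 132 to 218 in the null libraries and 111 to 125 in the WT libraries, while the 4 adult globins alone made up 11.3% to 21.3% of all abundance in the null libraries and 26.1% to 26.9% in the WT libraries. Null library 3 stood apart from all others, with a median absolute log2 difference per gene of 0.246 to 0.357 to each, against 0.158 to 0.239 between any of the other pairs. For this reason the differences of the enzymes are given below with and without it.

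The erythroid isoform Alas2 was the most abundant of the enzymes in every library. In the deposited values it was the 1 member whose genotypes did not overlap. With libraries scaled to equal totals, with or without the globin genes, the genotypes overlapped for Alas2 too. Its abundance was 914, 753 and 426 in null libraries 1 to 3, against 983, 925 and 1215 in WT libraries 1 to 3. Null library 1 was only just below the lowest WT library, and null library 3 was far below all others. The mean was 698 ± 249 in null and 1041 ± 153 in WT (SD, n = 3 each), a ratio of 0.67. On the log2 scale the difference was -0.64 ± 0.29 (SE), with an unadjusted limma p of 0.0622 and an adjusted p of 0.812. The exact permutation test gave a two-sided p = 0.1, the smallest that 3 against 3 libraries allow. Alas2 was thus lower in each null library, but by less than limma's threshold over all genes. In bulk tissue, fewer red cell precursors and less Alas2 RNA in each of them cannot be told apart.

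The other isoform, Alas1, ran the opposite way. Its abundance was 86.2, 115 and 128 in null libraries 1 to 3, and 96.7, 84.0 and 61.8 in WT libraries 1 to 3. Null libraries 2 and 3 were above every WT library, while null library 1 fell within the WT range. The mean was 110 ± 21.3 in null and 80.8 ± 17.6 in WT (SD, n = 3 each), a log2 difference of 0.44 ± 0.21 (SE; limma p = 0.0764, adjusted p = 0.812; exact permutation p = 0.2). Alas1 was the only enzyme of the 8 whose log2 fold change was positive.

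The balance between the isoforms was given by the ratio of Alas2 to Alas1 in each library, which does not depend on how libraries are scaled. It was 10.6, 6.52 and 3.34 in null libraries 1 to 3, and 10.2, 11.01 and 19.7 in WT libraries 1 to 3. The lowest 2 ratios were in null libraries and the highest in a WT library, and the genotypes overlapped through null library 1. Mean log2 ratios of 2.62 ± 0.84 in null and 3.70 ± 0.52 in WT (SD, n = 3 each) differed by -1.08, with an exact two-sided permutation p = 0.2. With any single library left out the difference kept its direction and lay between -1.48 and -0.65.

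Of the cytosolic enzymes, Alad showed the widest difference between the means. Alad makes porphobilinogen, the building block of the ring, and its abundance was 160, 134 and 73.2 in null libraries 1 to 3, against 187, 155 and 163 in WT libraries 1 to 3. Null libraries 2 and 3 were below every WT library and null library 1 was not. Alad averaged 122 ± 44.3 in null and 168 ± 16.96 in WT (SD, n = 3 each), a log2 difference of -0.53 ± 0.28 (SE; limma p = 0.0999, adjusted p = 0.812; exact permutation p = 0.2).

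Uros, which closes the ring, had an abundance of 90.1, 86.9 and 53.6 in null libraries 1 to 3, and 83.8, 80.0 and 79.5 in WT libraries 1 to 3. Null libraries 1 and 2 were above every WT library and null library 3 below all of them, so the mean log2 difference of -0.11 ± 0.21 (SE; adjusted p = 0.893) had no clear direction. Urod, which trims the side chains of the ring, had an abundance of 204, 193 and 111 in null libraries 1 to 3, and 220, 199 and 195 in WT libraries 1 to 3. Here null library 3 alone was far from the rest, and the log2 difference was -0.32 ± 0.23 (SE; limma adjusted p = 0.812; exact permutation p = 0.4).

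The late enzymes at the mitochondrion shared a low value in null library 3 and differed in the other null libraries. Cpox had an abundance of 152, 156 and 82.1 in null libraries 1 to 3, and 139, 134 and 110 in WT libraries 1 to 3. As with Uros, null libraries 1 and 2 exceeded every WT library and null library 3 was the lowest of all, with a log2 difference of -0.03 ± 0.26 (SE; adjusted p = 0.982). Ppox, which makes protoporphyrin, stood at 95.2, 74.0 and 56.0 in null libraries 1 to 3, and 90.5, 93.9 and 85.2 in WT libraries 1 to 3. For Ppox null library 1 was the highest of the 6 and the other null libraries were the lowest, with a log2 difference of -0.29 ± 0.19 (SE; adjusted p = 0.812).

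Fech, the ferrochelatase that completes heme, was second to Alas2 in mean abundance in both genotypes. It stood at 213, 250 and 152 in null libraries 1 to 3, and 270, 248 and 228 in WT libraries 1 to 3. Null libraries 1 and 3 were below every WT library and null library 2 was within the WT range. The log2 difference was -0.30 ± 0.19 (SE; limma p = 0.162, adjusted p = 0.812; exact permutation p = 0.3).

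**Figure D1:**
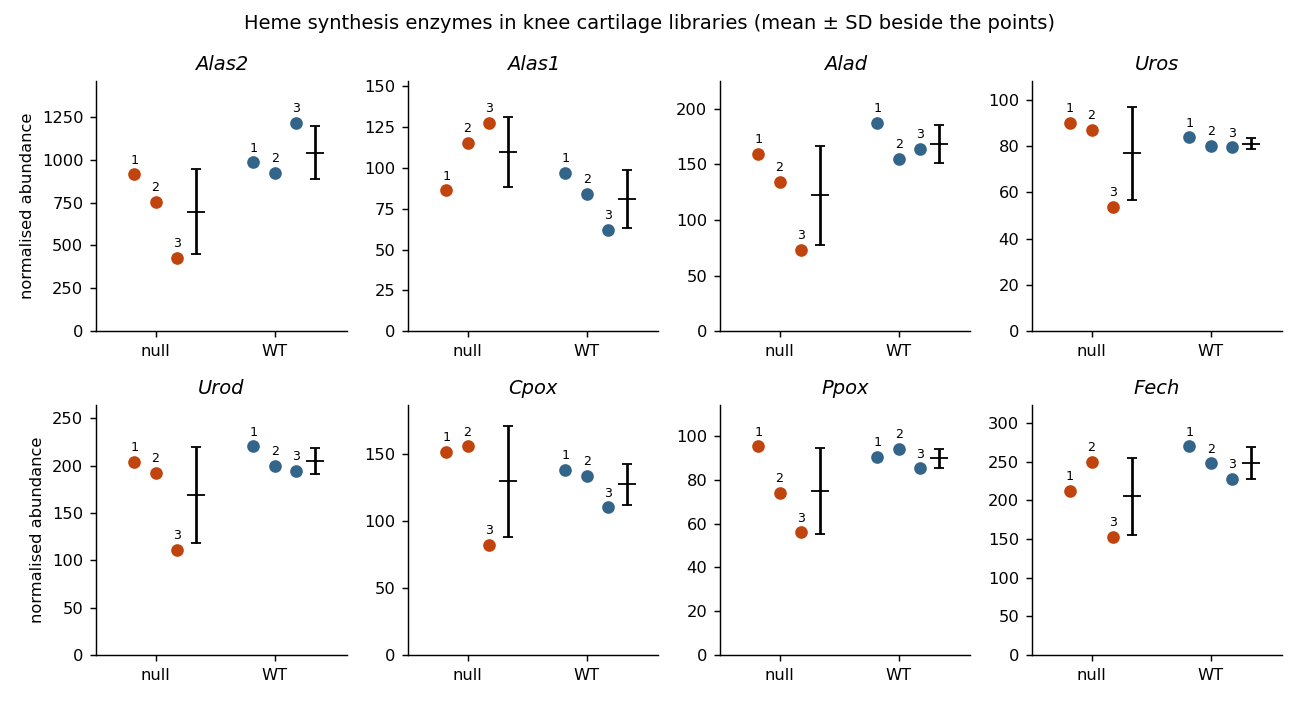
Abundance (normalised, vertical axis from 0, a scale of its own for each gene) of the 8 heme synthesis enzymes in the 3 miR-455 null libraries (orange, left) and 3 WT libraries (blue, right), with library numbers over the points and the mean ± SD beside them. Null library 3 has the lowest value of all 6 libraries for every enzyme except Alas1, where it has the highest. Alas2 is the 1 gene of the 8 whose genotypes do not overlap, against 11.4% of all genes tested.

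Counted together, 7 of the 8 enzymes had a log2 fold change below 0, against 46% of the 12804 genes tested. Their median log2 fold change was -0.30, against 0.02 over all genes tested. By limma, 0 of 8 passed an adjusted p of 0.05, which 0.0312% of all genes did, and 0 of 8 had an unadjusted p under 0.05, which 2.32% of genes had with lower and 3.25% with higher abundance in null. Every null library was below every WT library for 1 of 8, Alas2, against 5.11% of all genes, and above for 0 of 8, against 6.25% of all genes. A count of 0 or 1 among 8 is no result about the enzymes. The abundances of all 8 summed to 1913, 1761 and 1082 in null libraries 1 to 3, and 2071, 1919 and 2138 in WT libraries 1 to 3, which did not overlap. Alas2 carried much of this sum, and without it the sums of 999, 1009 and 656 in null and 1087, 994 and 923 in WT overlapped. Alas2 made up 47.8%, 42.7% and 39.3% of the summed enzyme abundance in null libraries 1 to 3, and 47.5%, 48.2% and 56.8% in WT libraries 1 to 3.

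Null library 3 held most of the difference. Among the 7 enzymes other than Alas1, its abundance was 40.9% (Alas2) to 66.1% (Uros) of the WT mean, with a median of 61.3%, and all 7 lay below every WT library. In null library 2 the same 7 ran from 72.3% (Alas2) to 122% (Cpox) with a median of 94.0%, and 4 lay below every WT library. In null library 1 they ran from 85.6% (Fech) to 119% (Cpox) with a median of 99.4%, and 2 lay below every WT library. The share of all genes below or above every WT library in a single null library was not computed. Such counts, here and below, are therefore descriptions and no result about the genes of a list. Alas1 was at 106.6%, 142.8% and 157.9% of its WT mean in null libraries 1 to 3.

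Most other genes of red cell precursors were also lowest in null library 3, and so were B cell genes. The 12 red cell membrane genes, among them Slc4a1 (the anion exchanger band 3), had a median of 108%, 98.4% and 53.1% of the WT mean in null libraries 1 to 3, and all 12 were below every WT library in null library 3. Slc4a1 had an abundance of 549, 601 and 328 in null libraries 1 to 3, and 566, 534 and 468 in WT libraries 1 to 3. The 10 erythroid transcription factors stood at a median of 103%, 101% and 63.7% of the WT mean in null libraries 1 to 3, and 7 of 10 were below every WT library in null library 3. Nfe2, Zbtb7a and Gfi1b were not (the last 2 are named after their values were seen). Nfe2 stood at 143, 174 and 177 in null against 189, 172 and 159 in WT. Gata1 stood at 58.9, 49.1 and 28.3 in null against 65.2, 60.2 and 57.6 in WT. The list of 8 red cell enzymes, among them Car2 (a carbonic anhydrase), Prdx2 and Bpgm, stood at 104.5%, 90.2% and 48.9%. The medians of all 3 lists thus had their lowest null library in common with the heme enzymes. The 6 B cell genes shared it too, with a median of 70.3%, 85.5% and 41.2% of the WT mean in null libraries 1 to 3 and 6 of 6 below every WT library in null library 3, so the low values there were not particular to red cell genes. The 6 muscle genes ran otherwise, with a median of 527%, 163% and 218% of the WT mean in null libraries 1 to 3. The part of these cells in the enzyme values was not tested.

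Most markers of neutrophils, which share the marrow with red cell precursors, were highest in null library 3, with 7 of 8 above every WT library there and Prtn3 inside the WT range. The 8 neutrophil genes summed to 74502, 119111 and 194748 in null libraries 1 to 3, and 112999, 77740 and 93186 in WT libraries 1 to 3. S100a9, a calcium-binding protein of neutrophils, accounted for 35097, 60812 and 98838 of this in null and 53074, 35450 and 46918 in WT. In null library 1, 6 of the 8 neutrophil genes and the sum were below every WT library, while Elane and Prtn3, and 5 of the 7 enzymes other than Alas1, were not. None of the 8 markers was at 0 in any library. Their part in the enzyme values was not tested.

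**Figure D2:**
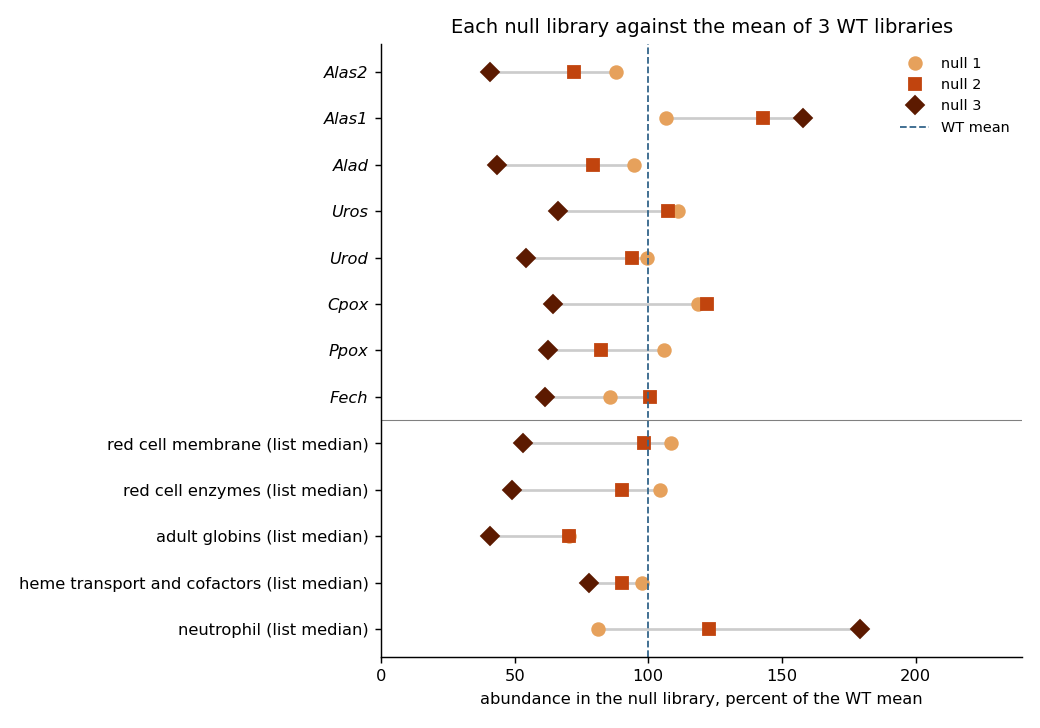
Abundance in each miR-455 null library as a percent of the mean of the 3 WT libraries (horizontal axis) for the 8 enzymes and, under the line, for the median gene of 5 related lists; circles, squares and diamonds are null libraries 1, 2 and 3, and the dashed line marks the WT mean at 100. Null library 3 lies between 40.9% and 66.1% for all enzymes but Alas1, close to the red cell lists, while Alas1 and the neutrophil list lie above 100% in it.

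Without null library 3 most of the enzymes differed less, while 3 of the 8 had no overlap between genotypes, against 1 with all libraries. Alas2 remained lower in both other null libraries than in any WT library, with a log2 difference of -0.32 ± 0.17 (SE). Uros at 0.13 and Cpox at 0.27 turned to a positive log2 difference, with both remaining null libraries above every WT library. With 2 null libraries 19.2% of all genes had no overlap, against 11.4% with 3. Alad at -0.20, Urod at -0.05, Ppox at -0.10 and Fech at -0.10 came closer to 0, and Alas1 stayed positive at 0.33. The adjusted p was 0.998 for all 8. Null library 1 had the opposite weight. When it was left out instead, Alas2 (-0.87), Alad (-0.76), Ppox (-0.48) and Alas1 (0.61) had unadjusted p values of 0.0168 to 0.0238 with adjusted p values of 0.206 to 0.217, but in that fit 18.8% of all genes had an unadjusted p under 0.05, against 5.57% with all libraries.

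To set the enzymes against the amount of red cell RNA, each was divided by the geometric mean of the 12 red cell membrane genes in the same library, which was 118, 102 and 55.5 in null libraries 1 to 3 and 113, 110 and 97.4 in WT libraries 1 to 3. Relative to these genes, Alas2 stood at 7.77, 7.36 and 7.67 in null libraries 1 to 3, and 8.67, 8.42 and 12.5 in WT libraries 1 to 3. The 3 null libraries were nearly level and all were below WT. Alad likewise stood at 1.36, 1.31 and 1.32 in null and 1.65, 1.41 and 1.68 in WT, also without overlap. Cpox was on the other side, at 1.29, 1.53 and 1.48 in null and 1.22, 1.22 and 1.13 in WT. On this scale 3 of the 8 enzymes had no overlap, against 5.97% of all genes tested. Their unadjusted limma p on it was 0.351 for Alas2, 0.501 for Alad and 0.475 for Cpox. Limma takes its spread partly from all genes, and on this scale its SE was 0.36 to 0.42 for each of the 8 enzymes. These p-values therefore do not measure the spread of the 3 ratios alone. Uros, Urod, Ppox and Fech overlapped between genotypes on this scale, as did Alas1, which ranged from 0.73 to 2.30 in null and from 0.63 to 0.85 in WT.

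When limma was run on libraries scaled to the red cell membrane genes, the log2 difference was -0.35 ± 0.37 (SE) for Alas2, -0.24 for Alad, 0.26 for Cpox and 0.73 ± 0.42 (SE) for Alas1. Urod at -0.04, Fech at -0.02, Ppox at -0.00 and Uros at 0.17 were near 0 or positive. This scaling moved the median of all genes to 0.29, a shift against which 7 of the 8 enzymes were lower and Alas1 higher, and 0 of 8 enzymes passed an adjusted p of 0.05 or an unadjusted p of 0.05 in it.

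**Figure D3:**
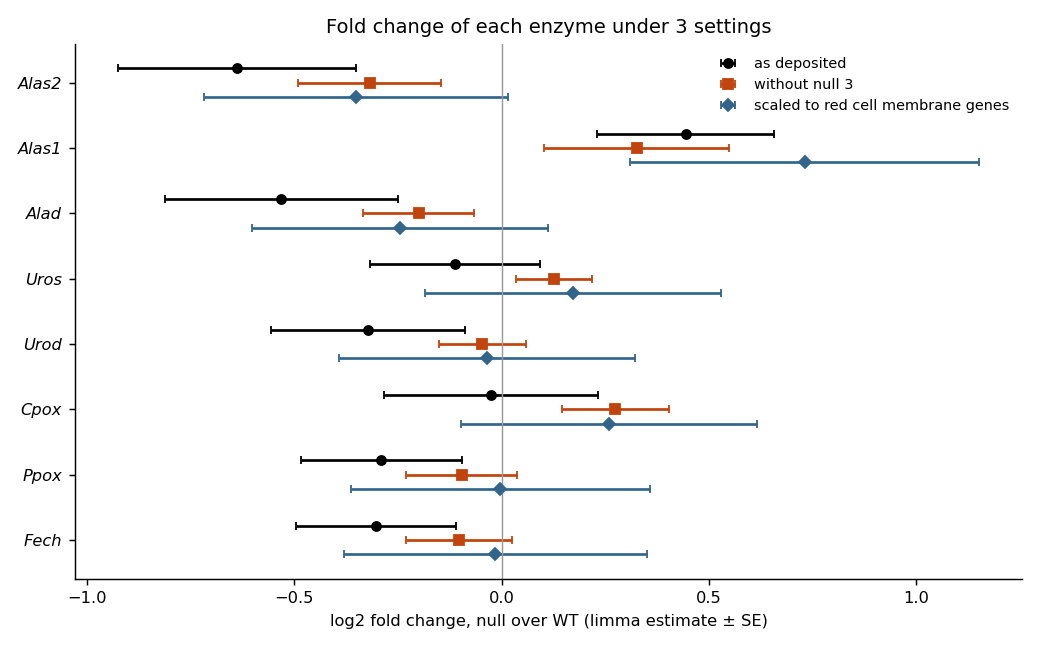
Limma log2 fold change of miR-455 null over WT (horizontal axis, point ± SE) for each enzyme with all libraries as deposited (black circles), without null library 3 (orange squares) and with libraries scaled to the red cell membrane genes (blue diamonds). Uros and Cpox change sign between the settings, Alas1 stays above 0, and the other 5 stay below 0, with Ppox, Fech and Urod close to it after scaling.

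The globins, the proteins that receive most of the heme of red cells, differed from the enzymes in null library 1 and from most of them in null libraries 2 and 3. In null library 2 they ran from 56.9% (Hba-a1) to 83.5% (Hbb-bt) of the WT mean. Alas2 (72.3%), Alad (79.4%) and Ppox (82.3%) lay in this range there, and the other enzymes above it. In null library 3 the globins ran from 34.1% (Hba-a1) to 47.2% (Hbb-bt) of the WT mean. Only Alas2 (40.9%) and Alad (43.4%) lay in that range, and the other enzymes were above it. The 4 adult globin genes summed to 195410, 192330 and 111590 in null libraries 1 to 3, and 303910, 251680 and 278150 in WT libraries 1 to 3. All 4 were below every WT library in all 3 null libraries, with a median of 70.4%, 70.4% and 40.9% of the WT mean and a median log2 fold change of -0.76. Hba-a1, an alpha globin, stood at 33279, 26962 and 16162 in null and 48586, 46631 and 46911 in WT, a log2 difference of -0.96 ± 0.32 (SE; limma p = 0.0193, adjusted p = 0.812; exact permutation p = 0.1). The globin genes include near-identical copies between which reads can be split, so the sum is safer than any single copy.

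Per 1000 units of globin, Alas2 was at 4.68, 3.91 and 3.82 in null libraries 1 to 3, and 3.24, 3.68 and 4.37 in WT libraries 1 to 3, which overlapped. Fech was at 1.09, 1.30 and 1.37 per 1000 units of globin in null and 0.888, 0.985 and 0.819 in WT, so that each null library exceeded each WT library. Fech was thus higher relative to globin RNA in null, although its own log2 difference was -0.30, since the globins were lower by more (median -0.76). A gene with little change would also rise on this scale. The share of all genes that did was not computed, so the rise cannot be called particular to Fech. Alas2 was not separated from WT on that scale. The other enzymes were not set against globin, but their log2 differences, too, were above the globin median.

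The carriers and cofactors that serve the pathway were described from a list of 19 genes, of which 18 were abundant enough to be tested. Of these 13 had a log2 fold change below 0 and 5 above, with a median of -0.20, and 0 passed the adjusted or the unadjusted threshold of 0.05. Glrx5, which helps to build the iron-sulfur clusters that ferrochelatase needs, had an abundance of 206, 169 and 102 in null libraries 1 to 3, and 225, 191 and 233 in WT libraries 1 to 3 (log2 difference -0.50 ± 0.26, SE). Slc25a39, a mitochondrial carrier of glutathione, stood at 122, 106 and 74.5 in null and 139, 123 and 145 in WT (-0.45 ± 0.19, SE), and was 1 of the 2 genes of the list with no overlap between genotypes. The other was the iron-sulfur scaffold Iscu, at 92.7, 91.3 and 87.2 in null and 103, 93.3 and 108 in WT, which was chosen here after its values were seen. These were 2 of 18, against 11.4% of all genes with no overlap in either direction, so the count is no result about the list. The 3 most abundant genes of the list were Atpif1, Tmem14c (a porphyrin carrier) and Tspo. Their log2 differences were -0.28 ± 0.20, -0.28 ± 0.18 and 0.02 ± 0.18 (SE).

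Genes of iron handling gave a median log2 fold change of -0.05 over 8 genes, with 3 positive and 5 negative. Tfrc, the transferrin receptor by which precursors take up iron, had an abundance of 255, 197 and 119 in null libraries 1 to 3, and 216, 225 and 206 in WT libraries 1 to 3, the same order among null libraries as Alas2. The ferritin chain genes are expressed in many cells. Ftl1, the light chain, was highest of the null libraries in null library 3, at 2071, 2124 and 2315 in null and 2842, 2308 and 2362 in WT. Fth1, the heavy chain, had the null order of Alas2 over a narrower range, at 1545, 1510 and 1360 in null and 1576, 1237 and 1354 in WT.

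Heme breakdown gave 4 positive and 3 negative log2 fold changes over 7 genes tested, with a median of 0.03. Hmox1, the heme oxygenase that opens the ring, was at 82.0, 108 and 102 in null libraries 1 to 3 and 86.4, 112 and 114 in WT libraries 1 to 3. Blvrb, a reductase abundant in red cells, followed the red cell genes, with 389, 334 and 191 in null and 394, 343 and 364 in WT. Hemoproteins other than globins, which draw on heme in other cells, had 10 positive and 2 negative log2 fold changes over 12 genes, with a median of 0.10. Mpo, the peroxidase of neutrophil precursors, was at 562, 618 and 661 in null and 585, 453 and 475 in WT (log2 difference 0.29 ± 0.15, SE), with null library 1 inside the WT range. In all of these lists 0 genes passed an adjusted p of 0.05 by limma, and Epx, the eosinophil peroxidase, was the 1 hemoprotein with an unadjusted p under 0.05 (p = 0.0417, exact permutation p = 0.3, log2 difference 1.37 ± 0.55, SE), with only 3.75 to 20.6 in null and 3.61 to 4.06 in WT.

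**Figure D4:**
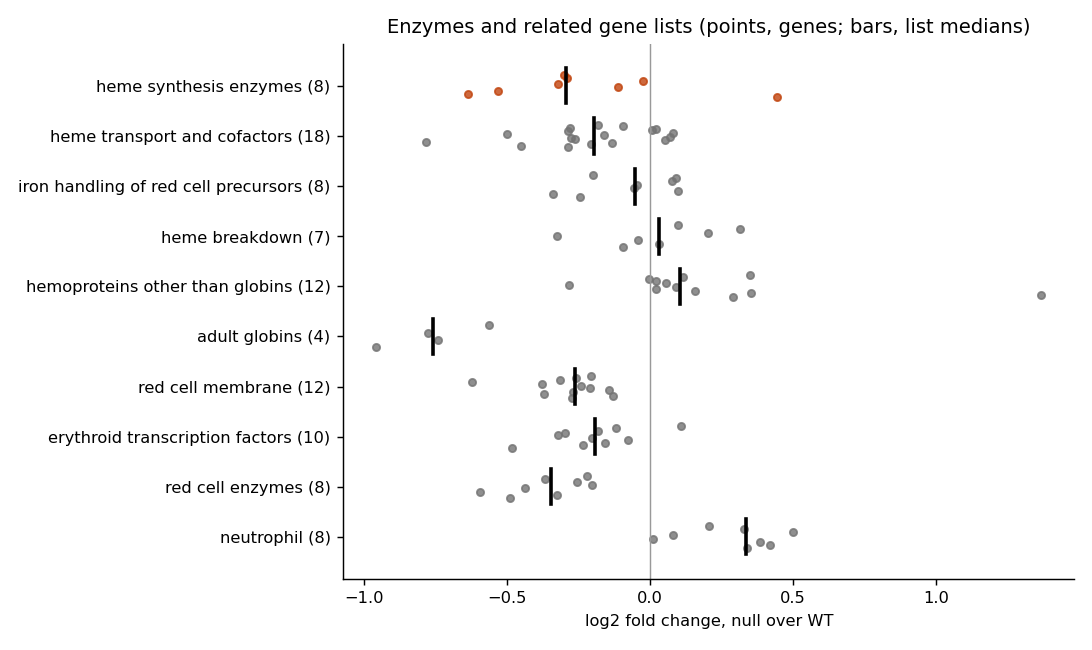
Limma log2 fold change of miR-455 null over WT (horizontal axis) for each tested gene of 10 lists, with the number of genes in brackets; points are genes, the black bar is the list median, and the heme synthesis enzymes are in orange. The enzymes have a median of -0.30, near the red cell membrane list at -0.26 and above the adult globins at -0.76, and Alas1 at 0.44 is apart from the other 7.

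Across the enzymes the abundances spanned about an order of magnitude. In WT the order of the means was Alas2, Fech, Urod, Alad, Cpox, Ppox, Uros and Alas1, from 1041 to 80.8, and only Uros and Alas1 overlapped among neighbours. In null it was Alas2, Fech, Urod, Cpox, Alad, Alas1, Uros and Ppox, from 698 to 75.1, and all neighbours below Alas2 overlapped. Alas1 thus went with the least abundant enzymes in both genotypes.

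Over the 6 libraries, the pattern of Alas2 on the log2 scale was compared with that of 8503 other genes as a description, since the points share genotype, scaling and null library 3. The enzymes most like it were Alad (Pearson r = 0.94), Urod (r = 0.90) and Ppox (r = 0.88), then Uros (r = 0.81), Fech (r = 0.79) and Cpox (r = 0.58), whereas Alas1 had r = -0.86. The 5 genes most like Alas2 were Rnaseh2a, Rce1, Tnpo2, Nudt19 and Mylk3, with r of 0.990 to 0.995. For Alas1 they were Papola, Eef1akmt1, Batf, Hsdl2 and Lig3, with r of 0.980 to 0.993. With 6 libraries and this many genes, such values are met by many genes, and Alad ranked 152 of the 8503 by its likeness to Alas2.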

How the data were processed

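RNA was sequenced from knee cartilage of 3 miR-455 null and 3 WT samples. Per the labels, the authors used FastQC, Trim Galore, kallisto and sleuth with mm10, of versions not given in the sources used here. What was deposited is a normalised signal per gene, never negative and not in whole counts, and the geometric mean of the 6 totals is 1000000. The design had named whole counts as a possibility; limma was used. The percent of reads aligned was also deposited and was not used.

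Values were taken as log2(value + 0.5) for 12804 genes with at least 1 in at least 3 libraries and compared with limma 3.58.1 (trended prior, R 4.3.3), with Benjamini-Hochberg adjustment over all genes tested; fold changes are null over WT and understate those of low genes. An adjusted p under 0.05 was called. Exact two-sided permutation tests used scipy 1.17.1. Scripts were tested on simulated data. GENCODE M21 named 35945 of the 36711 identifiers. The members and lists were chosen with earlier results of these data known. Of each list, the 3 genes of highest mean and the 2 of smallest p could be named, with any past the threshold, and the 5 genes most alike to Alas1 and to Alas2. Null and WT libraries of the same number were not treated as pairs, since their deviations from the group means had correlations of -0.13, 0.05 and -0.03.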

Additional observations from a re-analysis of the deposited data

How the results depend on the processing

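No enzyme passed an adjusted p of 0.05 under any of the 17 alternatives, and the log2 differences of Alas1, Alas2, Alad, Urod, Ppox and Fech kept their direction in all of them. Uros and Cpox turned positive with libraries scaled to equal totals (0.0052 and 0.092; the median of all genes moved to 0.13) and to the red cell membrane genes (0.17 and 0.26). With single libraries left out, Uros ranged from -0.25 to 0.13 and Cpox from -0.19 to 0.27, and Cpox was positive without WT library 1 (0.04), WT library 2 (0.01) or null library 3. The number of enzymes without overlap, 1 with all libraries, was 0 with totals taken without globins, 3 with red cell scaling and 1 to 5 with a library left out. The share of all genes without overlap was 11.4% with all libraries, and 6.94%, 5.97% and 17.6% to 39.8% under these. With equal totals the 1 enzyme without overlap was Alas1 and not Alas2, where 14% of all genes had no overlap. Enzymes with an unadjusted p under 0.05 numbered 1 with equal totals and 0 to 4 with a library left out, where 7.09% and 3.33% to 18.8% of all genes had one. Over all genes, 4 passed the adjusted p of 0.05, against 2 with no filter, 1 with a filter of at least 5 in 3 libraries, 8 with red cell scaling and 1 to 11 with a library left out. In the fit with the replicate block 1 gene passed, and no call on an enzyme moved. These counts were small, and the cause of their movement was not tested. Differences within the spread of 3 libraries a genotype were not detectable, and depth is unknown.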
